A study of Mus musculus with 10 samples.

Results

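The 9 genes described here are transglutaminases and precursor proteins of the cornified envelope of the epidermis, and not all of these transglutaminases are known to act on the envelope. They are the transglutaminase genes Tgm1, Tgm2, Tgm3, Tgm5 and Tgm7 and the genes of 4 precursor proteins, Ivl (involucrin), Lor (loricrin), Evpl (envoplakin) and Ppl (periplakin). They were chosen by symbol, with earlier results of these data known, and all 9 were present among the 20611 genes of the deposited tables. All 9 had enough counts in these libraries to be tested, as did 14861 genes in total.

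The cornified envelope is a sheet of cross-linked protein that replaces the plasma membrane as a keratinocyte becomes a dead corneocyte. Transglutaminases are calcium-dependent enzymes that make its bonds, joining glutamine to lysine residues of neighbouring proteins. Envoplakin, periplakin and involucrin form a scaffold under the membrane, loricrin and small proline-rich proteins are then added to it, and ceramides are attached to its outer face.

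mRNA sequencing was done on whole skin of 10 mice with 1 library per mouse. The 5 Klk6+ mice overexpressed a Myc/His-tagged mouse Klk6, which encodes the secreted trypsin-like protease kallikrein-related peptidase 6. In these mice the driver K5-tTA, active in keratinocytes and in some other stratified epithelia, switched on the transgene Tetos-Klk6 in the absence of doxycycline. The 5 WT mice were littermates that carried neither transgene or only 1 of them, and with only 1 of them Tetos-Klk6 is not switched on. Both lines had been backcrossed to C57BL/6, and each genotype held 3 males (replicates 1 to 3) and 2 females (replicates 4 and 5). Per the labels' protocols, matings took place under doxycycline, the chow containing it was returned when Klk6+ mice were 10 to 11 weeks old, and skin was taken when they were 14 to 16 weeks old. The labels do not say for each library how long doxycycline had been given when the skin was taken, so Klk6+ values cannot be tied to a time with or without it. No body site is named.

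Total counts ranged from 26521019 to 39796511 in Klk6+ and from 32798416 to 41970272 in WT. The targeted gene, Klk6, was high in every Klk6+ library. It stood at 8572 to 11801 FPKM in the Klk6+ libraries and at 10.4 to 19.9 FPKM in WT. FPKM are the authors' values, scaled to transcript length and library size, so they allow levels to be compared between genes. The defining keratinocyte genes Krt5 and Krt14 were present in both genotypes, Krt5 at 5185 ± 975 CPM in Klk6+ and 2529 ± 911 CPM in WT, and Krt14 at 10049 ± 1889 CPM in Klk6+ and 930.3 ± 363 CPM in WT (SD, n = 5 each; CPM are counts scaled to the effective library size). On the second principal component of log2 CPM, Klk6+ 3 (-35.2) and Klk6+ 5 (-55.6) stood away from the remaining Klk6+ libraries (5.3 to 45). Leaving out this pair kept the same 8 of the 9 genes called in the same direction.

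Transcripts of the keratinocyte transglutaminases rose in Klk6+ skin and those of Tgm2 and Tgm7 fell, while the precursors split into a rise of Ivl and Evpl, a fall of Lor and no call for Ppl. Of the 9 genes 5 rose and 3 fell by the quasi-likelihood test of edgeR with sex as a covariate (adjusted p below 0.05 over all genes tested), which is 88.9%. The same test called 72.8% of all genes tested, 37.7% higher and 35.1% lower, so this share is read against a high background. At 2-fold or more, 4 of the 9 genes were called higher and 3 lower, against 15.7% and 20.5% of all genes tested. At 4-fold or more, 2 were higher (Tgm1 and Tgm3) and 1 was lower (Tgm7), against 5.79% higher and 8.07% lower. Klk6+ and WT libraries were fully separate in CPM for 7 of the 9 genes, 5 higher and 2 lower, against 57.0% of all genes tested (30.1% higher and 27.0% lower). The median log2 fold change was 0.90 over the 9 genes and 0.04 over all genes tested. In whole skin, fewer cells of a type and less RNA per cell cannot be told apart.

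**Figure D1:**
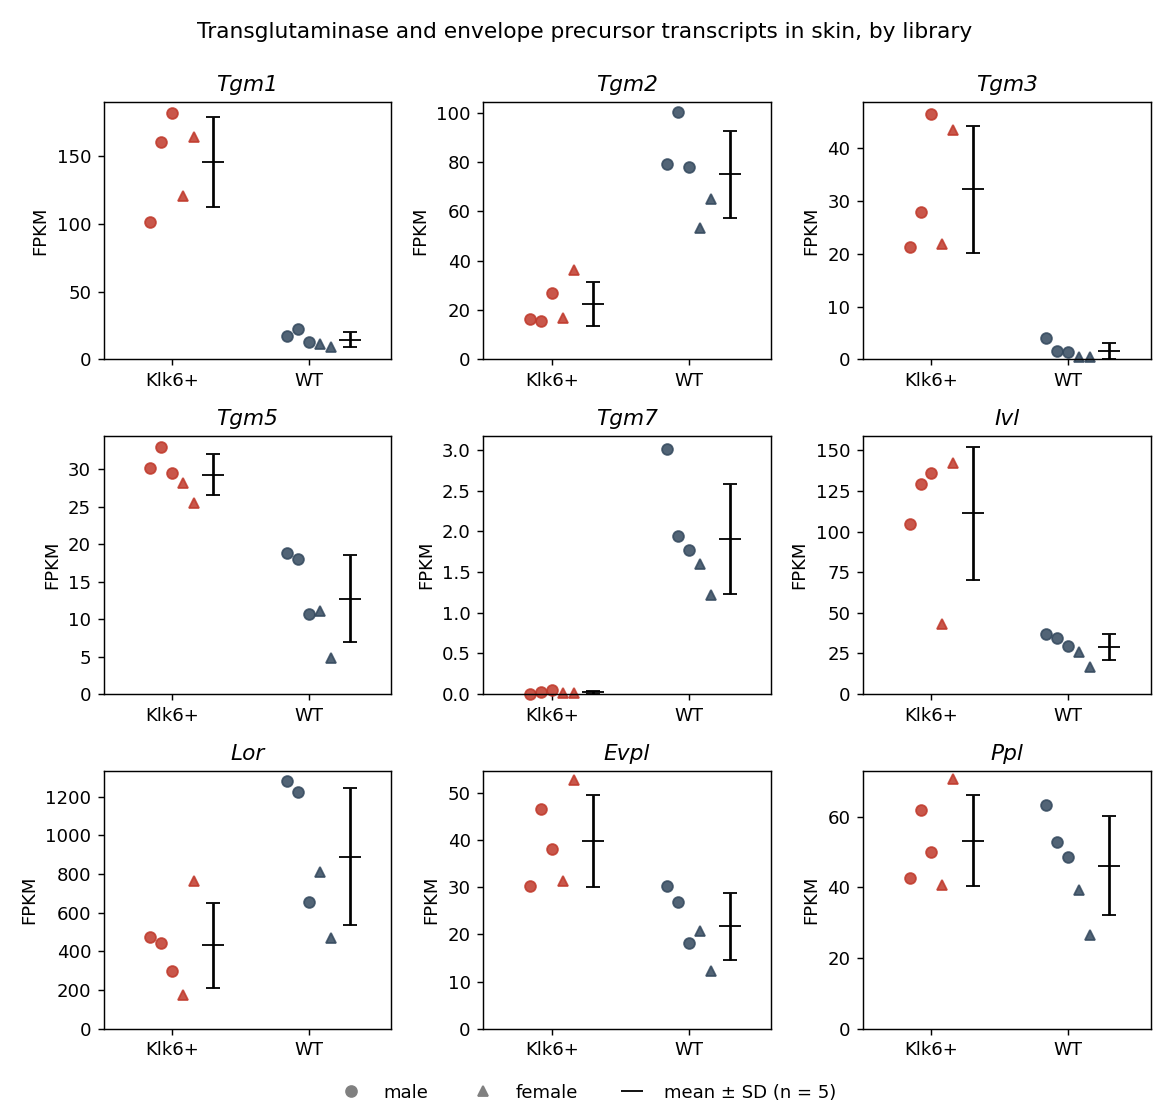
FPKM of each gene in the 10 libraries, 5 Klk6+ (red) and 5 WT (dark), on axes that start at 0, with males as circles, females as triangles and the mean ± SD beside the points. The genotypes are separate for Tgm1, Tgm2, Tgm3, Tgm5, Tgm7 and Ivl, meet for Evpl, and overlap for Lor and Ppl.

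Tgm1 encodes the membrane-anchored transglutaminase of keratinocytes, whose loss causes lamellar ichthyosis in humans. Its level was 101.3, 160.5, 182, 121 and 164 FPKM in Klk6+ 1 to 5, against 17.6, 22.6, 12.8, 11.2 and 8.88 FPKM in WT 1 to 5. Every Klk6+ library lay well above the highest WT library. The log2 fold change was 3.35 ± 0.25 (SE), or 10.2-fold, with adjusted p = 1.91e-06 by edgeR. Leaving out any single library gave log2 fold changes of 3.15 to 3.52. The gene lies on chromosome 14 from 55700009 to 55713926 on the minus strand (GRCm38), and 182 of its exonic bases overlap Gm49067 on the opposite strand, which was not analysed here.

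Tgm3 encodes the epidermal transglutaminase of the granular layer and hair follicle, made as a proenzyme that proteolysis activates. It had 21.3, 27.9, 46.4, 21.8 and 43.4 FPKM in Klk6+ 1 to 5, against 4.05, 1.54, 1.47, 0.382 and 0.430 FPKM in WT 1 to 5. Its log2 fold change of 4.68 ± 0.58 was the largest rise among the 9 genes (adjusted p = 4.44e-05 by edgeR). The WT values spread widely, with a coefficient of variation of 94.7%, and WT 1 was highest. The difference was 4.64 on the log2(FPKM + 0.1) scale and 3.78 on the log2(FPKM + 1) scale, which damps the low WT values. Genes of the hair follicle inner root sheath and hair shaft summed to 27.7 to 5551 CPM in Klk6+ and 25.0 to 391 CPM in WT. Of the 14 tested 3 were called, all higher, which is 21.4%, against 72.8% of all genes tested (37.7% higher). Leaving out a single library gave 0 to 12 calls, with 12 without WT 5. Tgm3 was highest in Klk6+ 3 and Klk6+ 5, and these were the Klk6+ libraries with the lowest hair gene sums, 27.7 and 31.6 CPM. Among the WT libraries Tgm3 was highest in WT 1, which had the second highest hair gene sum (271 CPM). WT 5 had the highest hair gene sum (391 CPM), and its Tgm3 level of 0.430 FPKM was close to the lowest WT value. The part of hair content in the level of Tgm3 was not tested.

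Tgm5 encodes a further keratinocyte transglutaminase, whose loss causes acral peeling skin syndrome in humans. It rose to 30.2, 33, 29.6, 28.2 and 25.5 FPKM in Klk6+ 1 to 5, against 18.8, 18.0, 10.6, 11.1 and 4.86 FPKM in WT 1 to 5. The groups did not overlap, and the spread was narrow in Klk6+ (coefficient of variation 9.43%) and wide in WT (45.6%). The log2 fold change was 1.26 ± 0.25 (adjusted p = 0.000981 by edgeR).

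Tgm7, which encodes transglutaminase Z, a little-studied member of the family, lies 7.72 kilobases from Tgm5 on chromosome 2 (121093565 to 121109795, minus strand) and moved the other way. It had 0, 2, 4, 1 and 1 counts in Klk6+ 1 to 5, against 287, 187, 133, 120 and 91 counts in WT 1 to 5. In WT this was a low level of 1.22 to 3.02 FPKM. Summed over the group the gene had 8 counts in Klk6+ and 818 in WT, a WT to Klk6+ ratio of 88.5 (exact 95% counting interval 44.7 to 206, which covers counting error only). The fitted log2 fold change was -6.35 ± 0.44 (adjusted p = 1.15e-06 by edgeR). It was -3.996 on the log2(FPKM + 0.1) scale and -1.48 on the log2(FPKM + 1) scale, where either added value exceeds every Klk6+ value. The 0 counts in Klk6+ 1 allow a level of up to 0.085 CPM at that depth, which is 3 counts.

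Tgm2 encodes tissue transglutaminase, an enzyme made in endothelium, fibroblasts, macrophages and smooth muscle as well as in basal keratinocytes. Its level was 16.6, 15.6, 27.1, 16.9 and 36.1 FPKM in Klk6+ 1 to 5, against 79.0, 100.1, 78.0, 53.2 and 65.0 FPKM in WT 1 to 5. The log2 fold change was -1.75 ± 0.28 (adjusted p = 0.000239 by edgeR), and the groups did not overlap. Leaving out Klk6+ 3 and Klk6+ 5 together gave -2.27 (adjusted p = 1.35e-05). On the opposite strand, exons of Gm20412 share 633 bases and those of Rprd1b 370 bases with those of Tgm2, and the library kit does not mark strand. Reads from such stretches cannot be assigned to one gene, and Gm20412 was not analysed here. Rprd1b itself stood at 45.6 ± 2.13 CPM in Klk6+ and 45 ± 5.75 CPM in WT (SD, n = 5 each; log2 fold change 0.02, adjusted p = 0.832 by edgeR).

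Markers of endothelium, fibroblasts and macrophages, which make Tgm2, were lower in the same Klk6+ libraries. Over all genes tested 35.1% fell. Of 10 blood endothelium genes 9 fell, and their summed level was 264.4 to 364.7 CPM in Klk6+ and 458 to 623 CPM in WT. All 8 fibroblast genes fell, with sums of 4668 to 9541 CPM in Klk6+ and 12336 to 41318 CPM in WT. All 9 macrophage genes fell, with overlapping sums of 331 to 1247 CPM in Klk6+ and 1168 to 5082 CPM in WT. All 16 skeletal muscle genes fell as well, to 4885 to 9783 CPM in Klk6+, against 62497 to 93810 CPM in WT. Basal keratinocytes also make Tgm2, and their genes had higher sums in Klk6+ (12856 to 18837 CPM, against 3406 to 9301 CPM in WT). Of these 6 genes 3 rose and 2 fell. Smooth muscle had no list. No marker on these lists was at 0 in either genotype, and their part in the fall of Tgm2 or Tgm7 was not tested.

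The make-up of the transglutaminase transcripts thus differed between the genotypes. Tgm1 took 63.3% ± 3.08 of the summed FPKM of the 5 genes in Klk6+ and 13.6% ± 1.87 in WT, while Tgm2 took 9.67% ± 2.45 in Klk6+ and 71.6% ± 6.30 in WT (SD, n = 5 each). In every Klk6+ library Tgm1 held the largest share and in every WT library Tgm2 did. Tgm3 made up 13.7% ± 2.34 in Klk6+ and 1.36% ± 1.15 in WT. Tgm5 kept a like share, 13.3% ± 3.43 in Klk6+ and 11.7% ± 3.73 in WT, with overlap. The summed FPKM of the 5 genes was 230 ± 50.1 in Klk6+ and 106 ± 28.3 in WT. Ratios of Tgm1 to Tgm2 FPKM were 4.55 to 10.3 in Klk6+ and 0.137 to 0.226 in WT. These shares follow from the single genes already described and carry no test of their own.

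**Figure D2:**
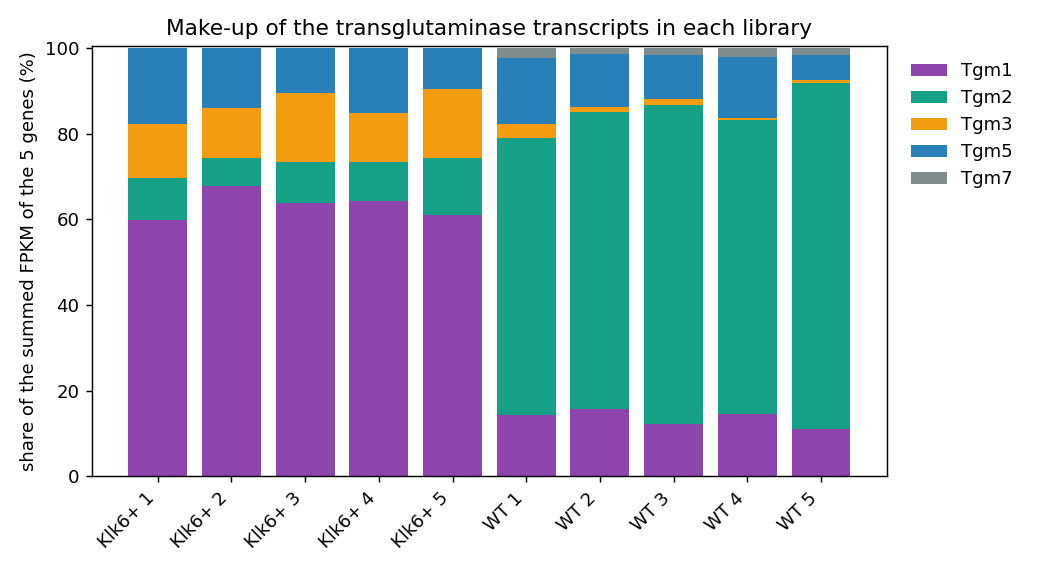
Share of each transglutaminase gene in the summed FPKM of the 5 genes, 1 bar per library, Klk6+ on the left and WT on the right. Tgm1 fills 59.8% to 67.7% of the Klk6+ bars and Tgm2 fills 64.5% to 80.8% of the WT bars.

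Involucrin, an early scaffold protein of the envelope and a classical substrate of transglutaminase 1, rose at the transcript level. Ivl had 105.0, 129, 136, 42.8 and 142 FPKM in Klk6+ 1 to 5, against 37.1, 34.4, 29.9, 26.0 and 16.4 FPKM in WT 1 to 5. Klk6+ 4 stood far below the other Klk6+ libraries but still above all WT libraries. The log2 fold change was 1.97 ± 0.29 (adjusted p = 0.000137 by edgeR).

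Loricrin, the glycine-rich protein that makes up most of the mass of the mature envelope, fell. Lor had 475, 444, 299.5, 171 and 761 FPKM in Klk6+ 1 to 5, against 1278, 1226, 655, 809 and 471 FPKM in WT 1 to 5. The groups overlapped: 3 of the 5 Klk6+ libraries lay below all WT libraries, and Klk6+ 5 lay above WT 3 and WT 5. The log2 fold change of -1.01 ± 0.40 was called with adjusted p = 0.0416 by edgeR. The call was lost without any one of 6 single libraries (Klk6+ 1, 2 or 3, WT 1, 2 or 4; adjusted p = 0.0792 to 0.101 by edgeR), and without Klk6+ 5 the change was -1.60 (adjusted p = 0.000602).

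Lor and Ivl lie 488 kilobases apart on chromosome 3, Lor from 92080271 to 92083142 and Ivl from 92570902 to 92573735, both on the minus strand, in the epidermal differentiation complex. The FPKM ratio of Lor to Ivl was 4.52, 3.43, 2.198, 3.997 and 5.34 in Klk6+ 1 to 5, against 34.5, 35.7, 21.9, 31.1 and 28.7 in WT 1 to 5. The ratio varied less within a genotype than either level did: its coefficient of variation was 30.3% in Klk6+ and 18% in WT, where that of Lor was 51.5% in Klk6+ and 39.9% in WT. Klk6+ 4, with the lowest level of each gene among the Klk6+ libraries, had a ratio in the middle of the Klk6+ range. This ratio is a description and was not tested.

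**Figure D3:**
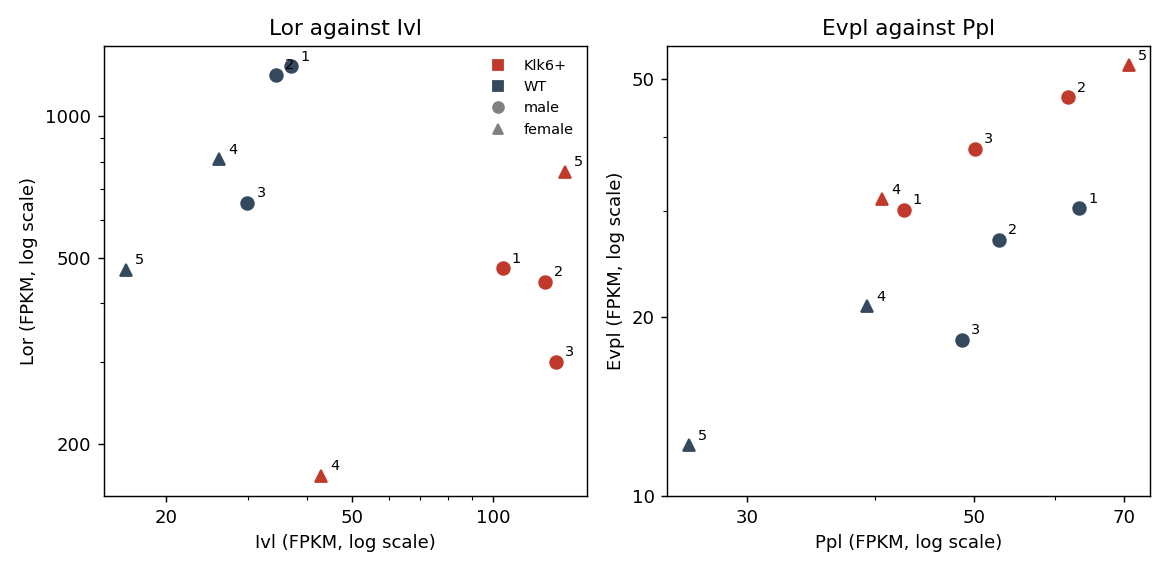
Lor against Ivl (left) and Evpl against Ppl (right) in FPKM on log axes, 1 point per library with its replicate number, Klk6+ in red and WT in dark, males as circles and females as triangles. Within each genotype the members of a pair tend to be high and low together, at Lor to Ivl ratios of 2.198 to 5.34 in Klk6+ and 21.9 to 35.7 in WT.

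The sequences upstream of Ivl and Lor are shown because these neighbours moved in opposite directions, and that of Tgm3 because it had the largest rise. Each is the 250 bases before the RefSeq start (GRCm38.p6), 5′ to 3′ on the strand of the gene, with motif matches in capitals. Ivl is chr3:92573736-92573985 (minus), Lor is chr3:92083143-92083392 (minus) and Tgm3 is chr2:130012090-130012339 (plus).
Ivl: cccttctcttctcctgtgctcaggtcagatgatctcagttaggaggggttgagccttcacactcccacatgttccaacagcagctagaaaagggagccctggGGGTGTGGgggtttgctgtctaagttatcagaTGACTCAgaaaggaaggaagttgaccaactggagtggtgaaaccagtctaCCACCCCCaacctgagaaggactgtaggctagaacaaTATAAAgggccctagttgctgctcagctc
Lor: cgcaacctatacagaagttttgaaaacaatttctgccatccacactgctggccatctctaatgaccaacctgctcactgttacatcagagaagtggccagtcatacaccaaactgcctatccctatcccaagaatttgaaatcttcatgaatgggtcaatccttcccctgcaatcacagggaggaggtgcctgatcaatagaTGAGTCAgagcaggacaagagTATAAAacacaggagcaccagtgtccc
Tgm3: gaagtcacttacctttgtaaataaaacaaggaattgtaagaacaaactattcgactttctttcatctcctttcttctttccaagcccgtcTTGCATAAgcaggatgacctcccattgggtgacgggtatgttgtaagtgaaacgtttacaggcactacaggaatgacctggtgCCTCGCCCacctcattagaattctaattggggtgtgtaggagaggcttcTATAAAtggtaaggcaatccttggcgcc

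The motifs searched were AP-1 (TGANTCA), Grainyhead-like (AACCNGTT), KLF (GGGNGNGG) and C/EBP (TTGCNNAA) on both strands, and the TATA box (TATAAA) on the gene's strand. Ivl and Lor each hold 1 AP-1 match, TGACTCA ending 110 bases before the Ivl start and TGAGTCA ending 42 bases before the Lor start. Both also hold a TATA box, ending 24 bases before the start in Ivl and 22 bases before it in Lor. Ivl further holds 2 KLF matches. Tgm3 holds a TATA box, 1 KLF match and 1 C/EBP match. No motif matches overlap in these sequences. Among 32851 upstream sequences of the same length, 6.75% held the AP-1 motif, 7.59% the TATA box, 45.9% the KLF motif, 9.56% the C/EBP motif and 1.79% the Grainyhead-like motif. RefSeq gave upstream sequences for 6 of the 9 genes. Matches of this kind describe the letters of the sequence and do not show that a factor binds there.

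Envoplakin and periplakin are plakins that pair with each other and link desmosomes and keratin filaments to the forming envelope. Evpl (chromosome 11, 116220559 to 116238077) had 30.2, 46.6, 38.2, 31.5 and 52.8 FPKM in Klk6+ 1 to 5, against 30.4, 26.9, 18.3, 20.8 and 12.2 FPKM in WT 1 to 5. Only Klk6+ 1 and WT 1 met, by a margin that vanished in CPM (216.2 to 369.7 CPM in Klk6+, 87.7 to 214 CPM in WT). The log2 fold change was 0.90 ± 0.24 (adjusted p = 0.00719 by edgeR). Ppl (chromosome 16, 5086291 to 5132421) had 42.7, 61.8, 50.1, 40.6 and 70.7 FPKM in Klk6+ 1 to 5, against 63.3, 52.9, 48.6, 39.3 and 26.4 FPKM in WT 1 to 5, with wide overlap. Its log2 fold change of 0.24 ± 0.22 was not called (adjusted p = 0.341 by edgeR), and it was -0.04 without Klk6+ 5.

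The partner genes kept a steady proportion within a genotype. The FPKM ratio of Evpl to Ppl was 0.707, 0.754, 0.763, 0.775 and 0.746 in Klk6+ 1 to 5, against 0.480, 0.509, 0.376, 0.529 and 0.462 in WT 1 to 5, and the ranges did not overlap. Across the 10 libraries, after the mean of each genotype was taken away, log2 CPM of Evpl and Ppl had a Pearson correlation of 0.95, the highest of the 36 pairs among the 9 genes. Ivl and Lor had 0.84, and the lowest pair was Lor with Tgm7 at 0.09. Tgm7 had only 0 to 4 counts in each Klk6+ library, so its correlations carry counting error there. These points share the depth and the epidermal share of each library, and differences between the sexes were not taken away. The correlations are therefore given as descriptions.

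In order of mean FPKM, Klk6+ skin had Lor (430.1), Tgm1 (146), Ivl (111), Ppl (53.2), Evpl (39.9), Tgm3 (32.1), Tgm5 (29.3), Tgm2 (22.5) and Tgm7 (0.0216). Each neighbour in that order overlapped the next in range, except Tgm2 and Tgm7. In WT skin the order was Lor (888), Tgm2 (75.1), Ppl (46.1), Ivl (28.7), Evpl (21.7), Tgm1 (14.6), Tgm5 (12.7), Tgm7 (1.91) and Tgm3 (1.57), with clear gaps after Lor and after Tgm5. Lor led in both genotypes, in each of the 10 libraries, while Tgm1 moved up to the second place in Klk6+ and Tgm2 moved down to the eighth.

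Within males 4 of the 9 genes rose and 3 fell, where 64.4% of all genes tested were called (33.4% higher and 31.0% lower). Within females 5 rose and 2 fell, where 59.6% were called (31.2% higher and 28.4% lower). Evpl missed the threshold in males (0.62 ± 0.29, adjusted p = 0.0904) and was called in females (1.31 ± 0.37, adjusted p = 0.0124), Lor was called in males (-1.36 ± 0.51, adjusted p = 0.0406) and not in females (-0.49 ± 0.61, adjusted p = 0.513), and Ppl was called in neither (edgeR for each). The difference of the genotype effect between the sexes was itself called for none of the 9 genes by edgeR, also with DESeq2 size factors and without any single library, and for 0% of all genes tested. At an unadjusted p below 0.05 the interaction took in 1 of the 9 genes and 9.49% of all genes tested. That gene was Tgm3, at 3.79 ± 0.49 in males and 6.28 ± 0.69 in females, an interaction of -2.50 ± 0.74 (males minus females; adjusted p = 0.332 by edgeR).

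**Figure D4:**
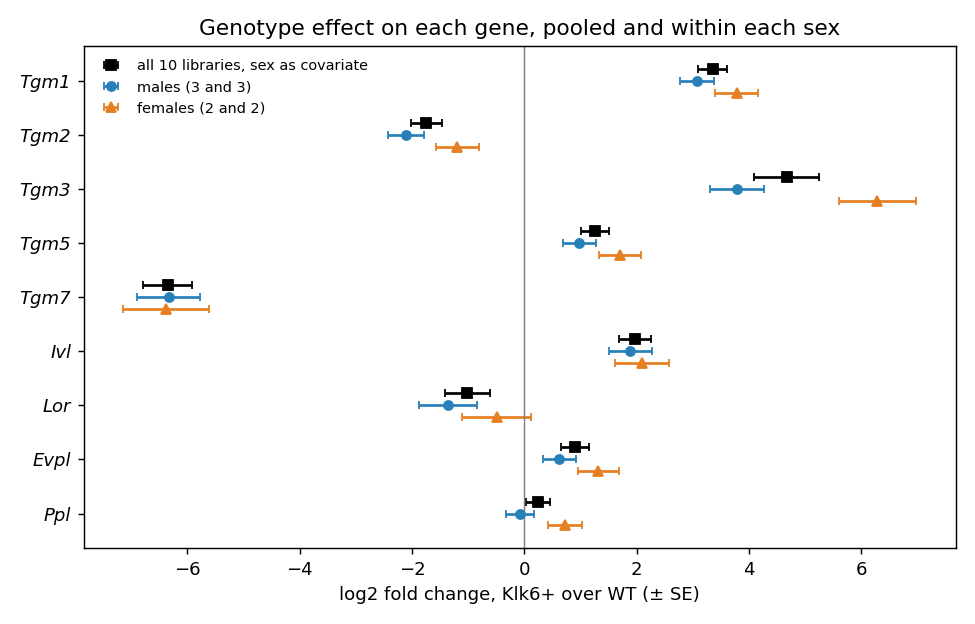
Log2 fold change of Klk6+ over WT for each gene with its standard error, from all 10 libraries with sex as a covariate (squares), from males (circles, 3 Klk6+ and 3 WT) and from females (triangles, 2 Klk6+ and 2 WT). Tgm3 shows the widest gap between the sexes, 3.79 in males and 6.28 in females, and Tgm7 the narrowest, -6.34 in males and -6.38 in females.

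Among WT mice, all 9 genes had a higher mean CPM in males than in females, where 57.3% of all genes tested did. The WT ranges did not overlap for 6 of them (Tgm1, Tgm2, Tgm3, Tgm7, Ivl and Ppl), always with males higher, against 24.2% of all genes tested with males higher and 19.2% with males lower. Tgm1, for example, had 12.8 to 22.6 FPKM in WT males and 8.88 to 11.2 FPKM in WT females. In Klk6+ mice the mean was higher in males for 5 of the 9 genes, against 49.7% of all genes tested, and only Tgm5 had ranges that did not overlap, with males higher (6.64% of all genes tested did so, and 8.43% with males lower). The summed level of 6 basal keratinocyte genes also differed, at 6132 to 9301 CPM in WT males and 3406 to 5705 CPM in WT females. Fibroblast sums were higher in WT males as well (22728 to 41318 CPM, against 12336 to 13155 CPM in WT females). Sums were lower in WT males for macrophages (1168 to 2017 against 4308 to 5082 CPM) and blood endothelium (458 to 521 against 536 to 623 CPM). Each genotype had 2 females. The contrast between males and females within a genotype was not tested, nor was the part of the cell make-up in it.

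Epidermal markers also differed between the genotypes, some of them higher and some lower in Klk6+. The basal keratinocyte genes summed to 12856 to 18837 CPM in Klk6+ and 3406 to 9301 CPM in WT, with no marker at 0. Krt14 made up most of this sum in Klk6+. Of the 6 basal genes 3 were higher and 2 lower (Krt15 and Col17a1), where 37.7% of all genes tested were higher and 35.1% lower. The 4 spinous genes summed to 7132 to 14432 CPM in Klk6+ and 3339 to 10131 CPM in WT. Of these, Krt1 and Dsc1 rose, and Krt1 stood at 6212 CPM in Klk6+ and 1013 CPM in WT. Krt10 fell (-0.54 ± 0.19, adjusted p = 0.0278) and Dsg1a was not called (-0.45 ± 0.23, adjusted p = 0.103, edgeR for each). The part of the basal and spinous genes in the rise of Tgm1, Tgm3, Tgm5, Ivl and Evpl was not tested. The sums of the basal genes did not overlap between the genotypes, and those of the spinous genes did.

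Of 3 other transglutaminase family genes tested, 1 rose, 1 fell and 1 was not called. The share called, 66.7%, was below the 72.8% of all genes tested (37.7% higher and 35.1% lower). F13a1, the coagulation factor XIII subunit that macrophages make, fell to 142 ± 76.6 CPM in Klk6+, against 627 ± 382 CPM in WT (log2 fold change -2.02 ± 0.32, adjusted p = 0.000237 by edgeR). Tgm6 rose at a very low level, 3.65 ± 4.09 CPM in Klk6+ and 0.302 ± 0.342 CPM in WT (3.62 ± 0.93, adjusted p = 0.00520 by edgeR). Tgm4, the prostate form, stood at 10.4 ± 1.19 CPM in Klk6+ and 9.69 ± 0.830 CPM in WT and was not called (adjusted p = 0.421).

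Genes of the small proline-rich proteins and late cornified envelope proteins, which are cross-linked into the envelope beside loricrin, mostly rose. Of 32 tested, 27 rose, 1 fell and 4 were not called, with a median log2 fold change of 3.47. In all 87.5% were called, against 72.8% of all genes tested (37.7% rose and 35.1% fell). The smallest p-values belonged to Sprr2d (9.04 ± 0.25), Sprr2b (9.0 ± 0.26), Lce3b (9.08 ± 0.32) and Sprr2e (9.29 ± 0.35). Lce1m was the member that fell, named after its value was seen, to 28.6 CPM in Klk6+, against 608 CPM in WT. Lce1a2, Lce1b, Lce1c and Lce1l were not called. Several of these genes are near-identical copies whose reads could be split between them, so single members are uncertain.

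Among 28 other envelope and cornification genes 17 rose, 5 fell and 6 were not called, with a median of 1.69. The share called, 78.6%, was near the 72.8% of all genes tested. Cstb (2.18 ± 0.12), of cystatin B, Casp14 (3.82 ± 0.23), of the protease that helps process filaggrin, Cnfn (4.17 ± 0.25), of cornifelin, and Rptn (5.67 ± 0.39), of repetin, rose. Krt2, Krt77, Krt10, Flg2 and Scel fell; these 5 were picked out once their values were known. Of these, Scel encodes sciellin, a further transglutaminase substrate (-1.08 ± 0.23, adjusted p = 0.00153 by edgeR).

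Of the 5 other plakin genes tested 3 fell and none rose, with a median of -0.64. The share called was below the 72.8% of all genes tested. Dst (-2.03 ± 0.20), Plec (-1.16 ± 0.16) and Eppk1 (-0.64 ± 0.26, adjusted p = 0.0463 by edgeR) fell, and the CPM of the genotypes overlapped for Eppk1. Dsp (0.56 ± 0.25, adjusted p = 0.0653) and Macf1 (0.25 ± 0.22, adjusted p = 0.322) were not called (edgeR for each). Leaving out a single library gave 2 to 3 calls on this list. Dst and Plec are also made in muscle and other tissues.

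Genes for attaching lipid to the envelope rose in 12 of 13 cases, with a median of 2.13, where 37.7% of all genes tested rose. Abhd5 (1.47 ± 0.10), Ephx3 (2.16 ± 0.19), Pnpla1 (2.45 ± 0.22) and Elovl4 (3.21 ± 0.30) had the smallest p-values. Aloxe3, of the epidermal lipoxygenase that follows the enzyme of Alox12b, was not called (0.41 ± 0.28, adjusted p = 0.196 by edgeR).

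Genes of proteases and inhibitors around transglutaminase activation moved both ways, with 3 of 9 higher, 3 lower and a median of 0.04. The 66.7% called lay below the 72.8% of all genes tested, and the median equalled that of all genes tested. Ctsd (1.29 ± 0.19), of cathepsin D, Cst6 (1.17 ± 0.24), of the inhibitor cystatin M/E, and Rarres1 (1.84 ± 0.37) rose. Serpinb6a (-1.95 ± 0.19), Lgmn (-1.005 ± 0.24), of legumain, a target of cystatin M/E, and Ctsb (-0.96 ± 0.26) fell. Ctsl, of cathepsin L, was not called (0.50 ± 0.24, adjusted p = 0.0838 by edgeR), nor were Ctsh and Capn1.

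Of 26 regulators of envelope genes 18 rose, 3 fell and 5 were not called, with a median of 0.92. The 80.8% called stood beside 72.8% of all genes tested (37.7% rose). The transcription factor genes Ovol1 (2.37 ± 0.16), Cebpb (1.86 ± 0.13), Ppard (1.78 ± 0.14) and Grhl3 (2.64 ± 0.21) had the smallest p-values, and Grhl3 encodes a known activator of Tgm1. Casr (-3.57 ± 0.45), of the calcium-sensing receptor, Maf (-1.20 ± 0.12) and Keap1 (-0.35 ± 0.11) fell and were named after their values were seen. Klf4, a central factor of barrier formation, stood at 563 CPM in Klk6+ and 531 CPM in WT and was not called (0.14 ± 0.31, adjusted p = 0.703 by edgeR). Fos, Jund, Trp63 and Notch1 were not called either.

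**Figure D5:**
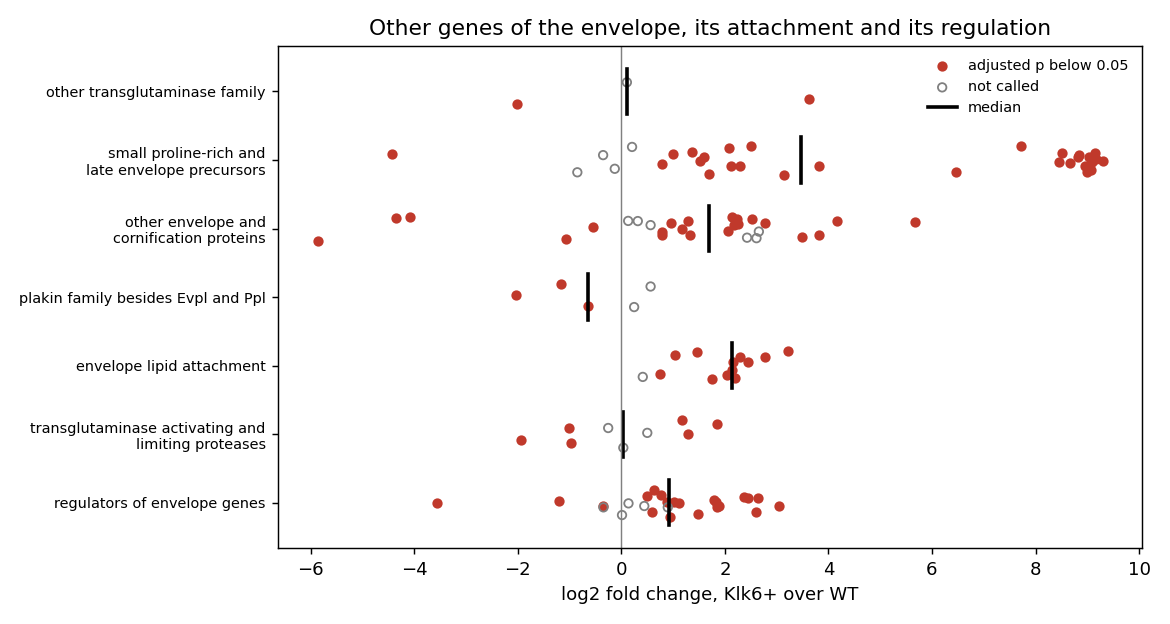
Log2 fold change of Klk6+ over WT for the tested genes of 7 lists, 1 point per gene, filled where adjusted p was below 0.05 and open where it was not, with the list median as a bar. Medians were 3.47 for small proline-rich and late envelope genes, 2.13 for lipid attachment and 0.92 for regulators, against 0.04 over all genes tested.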

How the data were processed

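RNA was extracted from snap-frozen skin, and polyA-selected libraries were made with a kit that does not mark strand and sequenced with 50-cycle single-end reads, per the labels' protocols. Each mouse has 1 deposited table that lists, by gene symbol, whole-number read counts beside FPKM, a level per transcript length. The counts carry no normalization; the authors scaled the FPKM to a total not given in the sources used here. The submitters' processing notes list, with no role for any, the tools HTSeq, TopHat2, Cufflinks 2.2.1 and SAMtools and the builds mm10 and GRCm38.

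Counts were analysed with edgeR 4.0.16 in R 4.3.3: filterByExpr on genotype (minimum count 10), trimmed mean of M values scaling, and quasi-likelihood F tests on genotype with sex as a covariate. Effects within sexes and the interaction came from a model of 4 genotype-by-sex means. Benjamini-Hochberg adjustment ran over all 14861 genes tested. The standard error is the log2 fold change divided by the square root of F. The biological coefficient of variation was 24.4%. On simulated counts of 14798 genes for the genotype effect, the test recovered 83.7% of 2-fold and 100% of 4-fold changes, with 10 false calls among 193. In that simulation only 200 genes were changed, and every gene had the same spread between replicates. In the data 72.8% of the genes tested were called, so these rates may not carry over to them. Alternatives were other scalings and filters, DESeq2 1.42.0, limma 3.58.1 (voom, and log2(FPKM + 0.1 or 1)), genotype alone, and leaving out each library. Replicates are separate mice, and no batch is named in the sources used here.

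The members and the 18 lists were chosen with earlier results of these data known. Named genes are the members, Klk6, up to 4 genes per list by smallest p, uncalled genes where a list has 5 or fewer, and 3 genes per member by likeness, of which 1 is not reported here. Outside this rule, the list genes named as falling (Lce1m, Krt2, Krt77, Krt10, Flg2, Scel, Casr, Maf, Keap1, Lgmn, Ctsb, Mogat1) were picked after their values were seen, and Rprd1b, Gm20412 and Gm49067 for their overlap with Tgm1 or Tgm2. Positions come from GENCODE M21, and upstream sequences from RefSeq (GRCm38.p6).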

Additional observations from a re-analysis of the deposited data

How the results depend on the processing

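Of 189 recomputed log2 fold changes of the 9 genes under 21 alternatives, 182 kept their direction and their side of the threshold. The exceptions were Lor, whose call was lost without any one of 6 single libraries, and Ppl, never called, whose sign turned without Klk6+ 5 (-0.036, adjusted p = 0.851) and, in an alternative chosen after seeing the data, without Klk6+ 3 and Klk6+ 5 together (-0.001). Over the single-library omissions the log2 fold change of Lor ran from -1.60 to -0.88 and that of Ppl from -0.04 to 0.36, and 7 to 8 of the 9 genes were called (5 higher each time, 2 to 3 lower). The cause was not tested. Tgm7 stood at -1.48 on the log2(FPKM + 1) scale, where the added 1 exceeds every Klk6+ value, and at -3.996 on the log2(FPKM + 0.1) scale. Calls on hair follicle genes ranged from 0 (without Klk6+ 1, 2 or 4, or WT 1, 2, 3 or 4) through 5 (without Klk6+ 3) and 6 (without Klk6+ 5) to 12 (without WT 5), and on erythroid genes from 0 to 1. Over all genes 10319 to 10744 were called when a library was left out and 9937 to 11265 under the other alternatives. Scaling moved the median of all genes by at most 0.10. No paired analysis was possible because replicate numbers were given in listing order and tie no Klk6+ mouse to a WT mouse. Depth limits only Tgm7 in Klk6+, at 0 to 4 counts per library.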

Other observations

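Markers of other cells in the skin samples moved with the genotype as well, where 37.7% of all genes tested rose, 35.1% fell and 72.8% were called. Of 9 neutrophil genes 8 rose, with S100a8 (log2 fold change 8.68 ± 0.23) and S100a9 (8.76 ± 0.24) in front, which inflamed keratinocytes also make, and Mmp9 was not called (-0.33 ± 0.43, adjusted p = 0.502 by edgeR). Of 10 sebaceous gland genes 8 rose, among them Elovl3 (5.55 ± 0.54), Mogat1 fell and Scd3 was not called. All 6 adipocyte genes fell, to summed levels of 521.5 to 768 CPM in Klk6+, against 1367 to 1838 CPM in WT. The erythroid genes Alas2 and Hba-a2 were not called (adjusted p = 0.595 for Alas2 and 0.951 for Hba-a2 by edgeR).

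Genes whose levels followed each member most closely were sought over the 10 libraries by the Pearson correlation of log2 CPM, after the mean of each genotype was taken away, among genes of at least 1 CPM on average. For Tgm1 they were Tollip, Hars and Cers3 (0.98 each), where Cers3 encodes the ceramide synthase of the epidermal barrier. For Tgm3 they were Ifi202b, Ovol1 and Tmem123 (0.98 each), for Tgm5 Rnase1 (0.98), Kcnk7 (0.98) and Rhbdl2 (0.97), for Tgm2 Gsr (0.98), Rlf (0.96) and Akap11 (0.95), and for Tgm7 Myzap (0.95), Slc30a7 (0.95) and Mxd1 (0.94). For Lor they were Krt78 (0.96), Ano8 (0.96) and Fcgbp (0.95), and for Ivl Serpinb10 (0.97), Ggh (0.93) and Acbd5 (0.92). For Evpl they included Dsp and Prom2 (0.98 each), and Dsp encodes desmoplakin, a fellow plakin of desmosomes. For Ppl they were Mfap3l (0.99), Zfp800 (0.98) and Usp54 (0.97). Tgm7 had only 0 to 4 counts in each Klk6+ library, so its values carry counting error there. Differences between the sexes were not taken away. These libraries share depth and the epidermal share of each skin sample, and the top of a ranking over many genes is high by selection, so the values are descriptions.

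Among these genes Krt78, Ano8 and Fcgbp, the nearest to Lor, fell like Lor, where 35.1% of all genes tested fell. Their log2 fold changes were -1.37, -0.94 and -3.63 (adjusted p = 0.00224, 0.000117 and 5.86e-05 by edgeR). Those nearest to Tgm7, which fell, went the other way: Myzap (1.41), Slc30a7 (0.88) and Mxd1 (2.64) were called higher. Over all genes tested 37.7% were higher, and the ranking for Tgm7 carries the counting error of its few Klk6+ counts. Of those nearest to Tgm2, which also fell, Rlf was called higher (0.45) and Gsr and Akap11 were not called. Serpinb10, the gene nearest to Ivl, was not called between the genotypes (-0.29, adjusted p = 0.333 by edgeR).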
